A study of Homo sapiens with 6 samples.

Results

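The mitochondrial ribosomal protein genes were defined here as the rows of the expression table whose symbol is MRPL or MRPS followed by digits and at most one letter A, B or C. The rule took 78 of 29571 rows, 49 named for the large subunit (MRPL) and 29 named for the small subunit (MRPS), and left out named pseudogenes. RNA was sequenced from DB cells, a human cell line derived from a diffuse large B-cell lymphoma, in a group labelled DB_ZHX2_Mut4 and a group labelled DB_ZHX2, with 3 libraries labelled in each. They are called Mut4 and ZHX2 cells below. ZHX2 is a nuclear protein with zinc fingers and homeoboxes that is known as a transcriptional repressor. The labels do not say what Mut4 alters in it, how the cells were made, whether a group is 1 clone, or whether libraries came from separate cultures. Unmodified DB cells were not analysed here, and the stated purpose was to look for pathways that differ between the lines.

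Mitochondria keep their own ribosome, which makes the few proteins that mitochondrial DNA encodes, all of them subunits of the respiratory chain and ATP synthase. Its rRNAs come from mitochondrial DNA, while every one of its proteins is encoded in the nucleus, made in the cytosol and imported. The proteins are a mix of families inherited from bacteria and proteins found only in mitochondria.

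The deposited values were FPKM, a level per gene normalized to transcript length and library size, so levels of different genes can be compared. Within a group the columns stood in fixed proportion. All 23808 genes above 0 in Mut4 cells had 1.05 and 1.21 times their replicate 1 value in replicates 2 and 3. In ZHX2 cells the factors were 1.33 and 0.897 for 23368 of 23370 genes, all within a relative tolerance of 1e-06. The spread between columns is therefore a scaling and carries no gene-specific replicate error. Whether the columns of a gene overlap between groups is decided by the same ratio as the fold between groups, and shows no agreement between replicates. Each group was counted as 1 sample, and no test, p-value or standard deviation between replicates is given for any difference below. Column totals ran from 294109 to 355116 FPKM in Mut4 cells and from 258080 to 383426 FPKM in ZHX2 cells, and the read depth behind them is not known. ZHX2 itself, whose transcript does not show which form is present, averaged 14.9 FPKM in Mut4 cells, against 18.0 in ZHX2 cells. SLC3A2, an amino acid transporter subunit, averaged 38.0 FPKM in Mut4 cells, against 102.0 in ZHX2 cells. B cell markers were present (8 of 8 at or above 1 FPKM, such as MS4A1 at 146 FPKM in Mut4 cells, against 147 in ZHX2 cells), and no T cell, NK cell, erythroid or fibroblast marker in the table averaged 1 FPKM or more in either group. Of the myeloid markers, LYZ averaged 2.97 FPKM in Mut4 cells, against 3.55 in ZHX2 cells, and CD68 averaged 0.671 FPKM in Mut4 cells, against 1.18 in ZHX2 cells. All 4 epithelial markers were above 1 FPKM, from 2.44 to 5.11 FPKM in Mut4 cells and from 2.12 to 4.90 FPKM in ZHX2 cells, and their part in any result was not tested.

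The promoter windows of the 2 members with the highest ratio between the cells and of the member with the lowest ratio show what lies at their RefSeq starts, 250 bases before to 50 after, on GRCh38.p14. Capitals mark matches, on either strand, to CCAAT (the NF-Y box), CACGTG (the E-box), CGCATGCG (the NRF1 core), CCGGAAG (the ETS core) or GCCATNTT (the YY1 core).
MRPS18A, chr6:43687742-43688041, minus strand: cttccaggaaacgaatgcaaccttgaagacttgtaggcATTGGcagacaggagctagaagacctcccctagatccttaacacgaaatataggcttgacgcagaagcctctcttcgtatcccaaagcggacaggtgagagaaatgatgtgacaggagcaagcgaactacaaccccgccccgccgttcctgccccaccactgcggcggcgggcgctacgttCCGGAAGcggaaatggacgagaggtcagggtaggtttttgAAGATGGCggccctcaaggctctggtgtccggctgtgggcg
MRPS11, chr15:88467458-88467757, plus strand: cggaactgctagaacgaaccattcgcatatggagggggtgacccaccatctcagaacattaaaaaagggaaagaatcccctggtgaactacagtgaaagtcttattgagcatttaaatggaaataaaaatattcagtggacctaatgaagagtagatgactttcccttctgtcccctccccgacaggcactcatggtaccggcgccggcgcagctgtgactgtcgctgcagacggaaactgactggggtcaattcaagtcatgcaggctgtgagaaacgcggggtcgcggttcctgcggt
MRPL36, chr5:1799788-1800087, minus strand: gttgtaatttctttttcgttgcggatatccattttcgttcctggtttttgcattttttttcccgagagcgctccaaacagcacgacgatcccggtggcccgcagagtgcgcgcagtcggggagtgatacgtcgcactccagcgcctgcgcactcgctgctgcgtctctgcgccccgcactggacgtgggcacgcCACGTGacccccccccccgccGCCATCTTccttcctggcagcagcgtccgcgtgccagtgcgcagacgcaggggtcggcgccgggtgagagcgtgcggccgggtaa
The MRPS18A window holds CCAAT on the reverse strand starting at position -212 from the gene start, CCGGAAG at -31 and GCCATNTT on the reverse strand at 10. The MRPL36 window holds the E-box CACGTG at -56 and GCCATNTT at -35. No match to the 5 motifs lies in the MRPS11 window. No match overlaps another.

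Most mitochondrial ribosomal protein genes were slightly higher in Mut4 cells than in ZHX2 cells, and few were far apart. Levels were compared as log2(FPKM + 1) of Mut4 cells minus that of ZHX2 cells, from the mean of the 3 columns, over 12643 genes that reached 1 FPKM in 3 or more of the 6 columns. This difference is called the log2 ratio below, and it understates the change of low genes. All 78 members passed that level. Their median log2 ratio was 0.11, with quartiles of 0.0053 and 0.21 and the whole range from -0.30 to 0.71. Over all tested genes the median was 0.02, and over the 10443 tested protein-coding genes it was 0.01. A ratio above 0 was found for 59 of 78 members (75.6%), against 53.8% of all tested genes. In bulk RNA, fewer cells of a type and less RNA per cell cannot be told apart.

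Members at least 25% higher in Mut4 cells were about as common as such genes among tested protein-coding genes, and none was as far lower. In all 6 of 78 genes (7.69%) were at least 25% higher in Mut4 cells on this scale, against 11.8% of all tested genes: MRPS18A, MRPS11, MRPL16, MRPS15, MRPL20 and MRPL37. None of the 78 was lower by the same factor, which is 20% lower, against 9.42% of all tested genes. At 1.5-fold, MRPS18A and MRPS11 were higher (2 of 78, against 2.54% of tested genes) and 0 were lower (against 2.56%). Over tested protein-coding genes alone, 8.80% were at least 25% higher and 8.92% at least 20% lower. At 1.5-fold, 131 of these 10443 genes were higher and 237 lower. Within 0.1 of 0 on the log2 scale lay 28 members (35.9%), against 31.6% of all tested genes. The counts moved with single columns of the table, because each column carries its own scaling. Without ZHX2 replicate 2, 30 members were at least 25% higher (38.5%, against 26.7% of all tested genes), the members' median was 0.28 and that of all tested genes 0.17. Without ZHX2 replicate 3, MRPS18A and MRPS11 were the 2 still at least 25% higher, 4 members were at least 20% lower (MRPL36, MRPL1, MRPL15 and MRPS6, or 5.13%, against 16.1% of all tested genes), the members' median was -0.0028 and that of all tested genes -0.07. In that setting 38 members lay above 0 (48.7%, against 38.5% of all tested genes). Without Mut4 replicate 3, 4 members were still at least 25% higher, MRPL20 and MRPL37 no longer being among them, and 3 were at least 20% lower (MRPL36, MRPL1 and MRPL15, or 3.85%, against 13.7% of all tested genes). Without ZHX2 replicate 1, MRPL37 was not among the 5 at least 25% higher, and MRPL36 was at least 20% lower (1.28% of members, against 12.01% of all tested genes). At 1.5-fold, 1 member, MRPS18A, was left without Mut4 replicate 3, as it was without ZHX2 replicate 1 and without ZHX2 replicate 3. The members' median stayed above that of all tested genes in each of these settings, by 0.07 to 0.11. Leaving out a column shifts nearly all genes by a like amount, so this gap could hardly change. It shows no agreement between replicates.

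**Figure D1:**
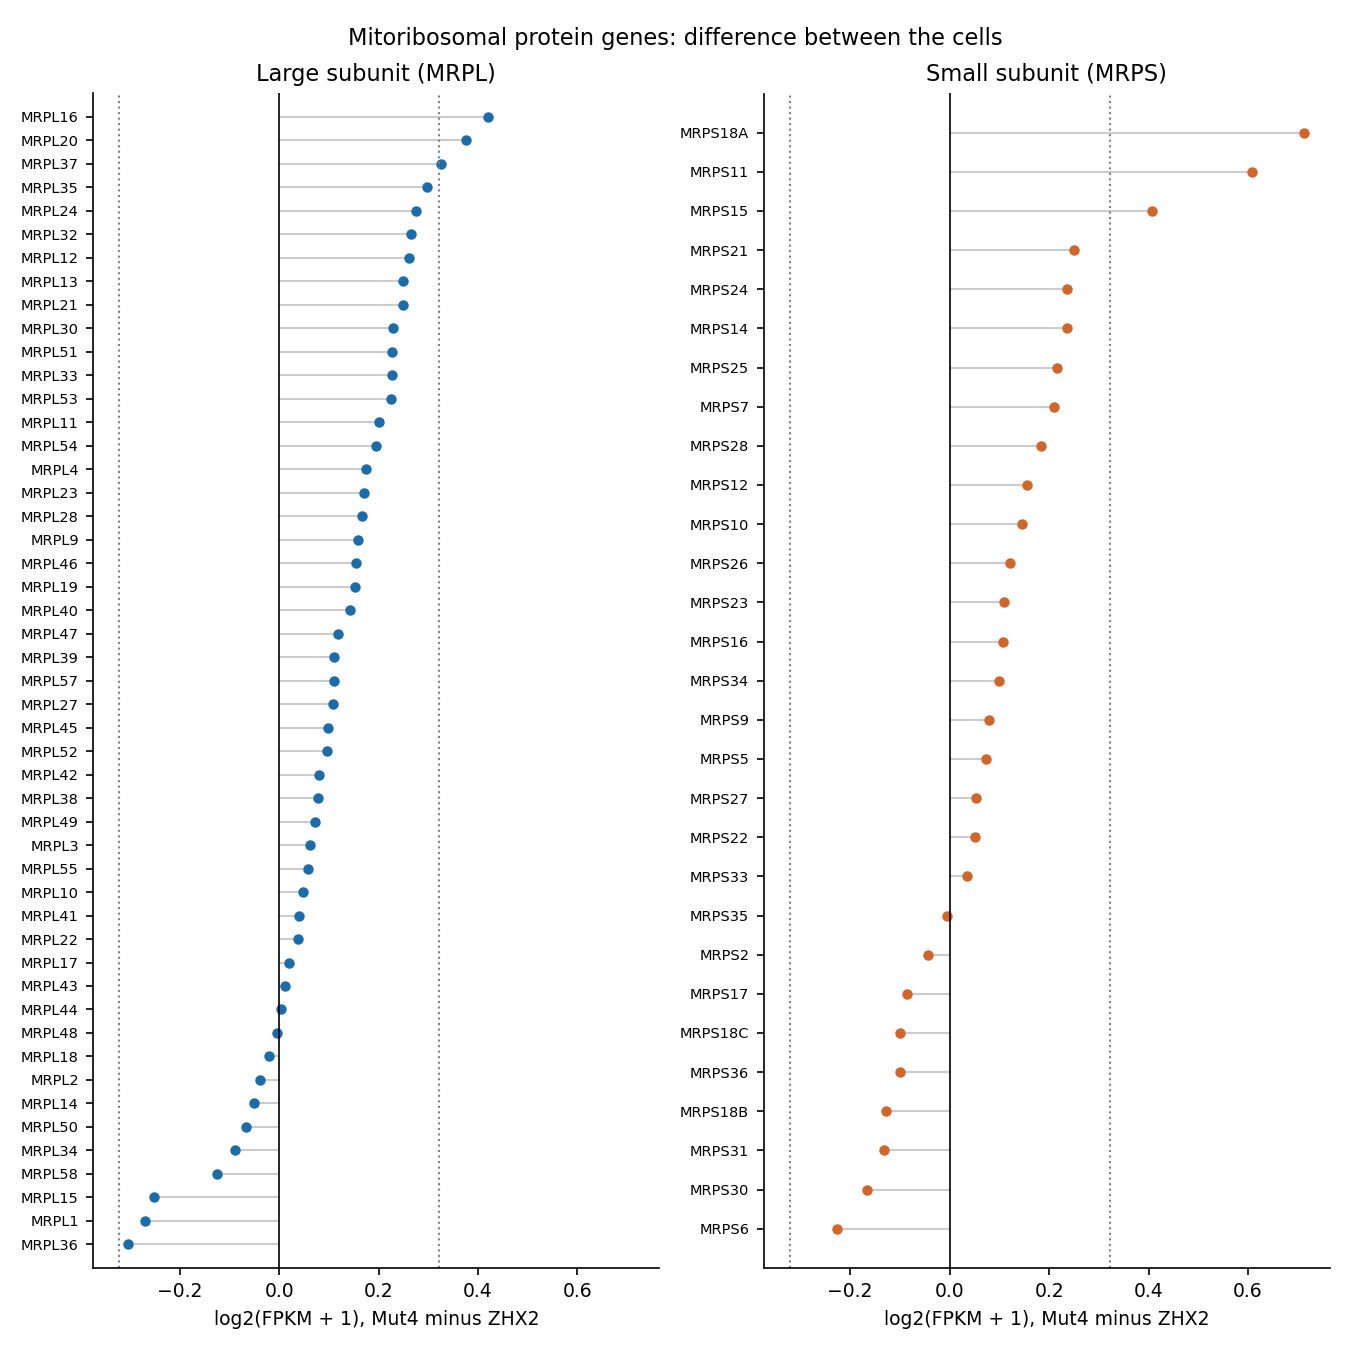
Difference in log2(FPKM + 1), Mut4 minus ZHX2 cells, for each of the 49 MRPL genes (left) and 29 MRPS genes (right), in order of size. Dotted lines stand at 25% higher and 20% lower: 3 large-subunit and 3 small-subunit genes lie to the right of the upper line and 0 lie to the left of the lower one.

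The subunits hardly differed from one another. The median log2 ratio was 0.11 for the 49 large-subunit genes and 0.10 for the 29 small-subunit genes, a difference of 0.01. Large-subunit genes lay above 0 in 39 of 49 cases (79.6%) and small-subunit genes in 20 of 29 (69.0%), and without ZHX2 replicate 3 in 25 and 13 cases for the large and small subunit. By name, the ratios ran from -0.30 to 0.42 in the large subunit and from -0.23 to 0.71 in the small one. Gene names do not always match positions. In solved structures the products of MRPS18A and MRPS30 sit in the large subunit, and MRPS36, also called KGD4, belongs to the 2-oxoglutarate dehydrogenase complex. Sorted by position, the medians were 0.11 for 51 large-subunit genes and 0.10 for 26 small-subunit genes, a difference of 0.0075. By position, MRPS18A counts with the large subunit, whose ratios then ran from -0.30 to 0.71, and those of the small subunit from -0.23 to 0.61, with a standard deviation between genes of 0.18 in each. Summed FPKM of the large subunit was 984 in Mut4 cells and 901 in ZHX2 cells, a ratio of 1.09. Summed FPKM of the small subunit was 918 in Mut4 cells and 824 in ZHX2 cells, a ratio of 1.11. This sum leans on MRPS21, the gene with the highest level. Without MRPS21 the small-subunit sum was 611 in Mut4 cells and 567 in ZHX2 cells, so the sums do not rank the subunits.

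In the large subunit the highest ratio belonged to MRPL16, whose product lies close to the tRNA sites of the ribosome. MRPL16 (ENSG00000166902, chr11:59806135-59810872, minus strand) had 32.1, 33.8 and 38.7 FPKM in the 3 Mut4 columns, against 23.9, 31.9 and 21.5 FPKM in the ZHX2 columns. The lowest Mut4 column stood just above the highest ZHX2 column, and the log2 ratio of the means was 0.42, or 1.34-fold. MRPL20, the relative of a bacterial protein that joins early in large-subunit assembly, had 20.7, 21.8 and 25.0 FPKM in Mut4 columns, against 15.9, 21.2 and 14.3 FPKM in ZHX2 columns. Its lowest Mut4 column was below ZHX2 replicate 2, so the columns overlapped, with a log2 ratio of 0.38. MRPL37, a protein found only in mitochondrial ribosomes, had 47.9, 50.4 and 57.8 FPKM in Mut4 columns, against 38.4, 51.2 and 34.4 FPKM in ZHX2 columns. Here too ZHX2 replicate 2 lay inside the Mut4 range, and the log2 ratio was 0.33, close to the line of 25% higher. Just inside that line MRPL35 (0.30) and MRPL24 (0.28, at the rim of the exit tunnel) followed.

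The lower end of the large subunit was led by MRPL36, one of the smallest ribosomal proteins, which binds zinc. MRPL36 (ENSG00000171421, chr5:1798386-1801366, minus strand) had 13.8, 14.5 and 16.7 FPKM in Mut4 columns, against 17.4, 23.2 and 15.6 FPKM in ZHX2 columns. Mut4 replicate 3 was above ZHX2 replicate 3, so the columns overlapped, and the log2 ratio was -0.30. MRPL1, of the mobile stalk through which used tRNA leaves, had 3.29, 3.46 and 3.97 FPKM in Mut4 columns, against 4.20, 5.59 and 3.77 FPKM in ZHX2 columns, a log2 ratio of -0.27. It had the lowest level of all 78 members in Mut4 cells. MRPL15 averaged 13.6 FPKM in Mut4 cells, against 16.4 in ZHX2 cells, a log2 ratio of -0.25. MRPL58, also called ICT1, a peptidyl-tRNA hydrolase that frees stalled ribosomes, averaged 21.7 FPKM in Mut4 cells, against 23.8 in ZHX2 cells (log2 ratio -0.13). MRPL34 stood at -0.09. Without ZHX2 replicate 2 the ratios of MRPL58 and MRPL34 were 0.05 and 0.08, while MRPL36, MRPL1 and MRPL15 stayed below 0 whichever column was left out. That split follows from the size of each ratio, since an omitted column shifts nearly all genes alike.

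Among genes named for the small subunit, MRPS18A had the highest ratio of all 78 members, and 181 of the 12643 tested genes had a higher one. MRPS18A (ENSG00000096080, chr6:43671303-43687791, minus strand) had 23.7, 24.9 and 28.6 FPKM in Mut4 columns, against 14.2, 19.0 and 12.8 FPKM in ZHX2 columns. Every Mut4 column was above every ZHX2 column, and the means of 25.7 and 15.3 FPKM in Mut4 and ZHX2 cells gave a log2 ratio of 0.71, or 1.64-fold. MRPS11, on the platform of the small subunit near the path by which mRNA leaves, followed (ENSG00000181991, chr15:88467453-88480773, plus strand). It had 18.5, 19.5 and 22.3 FPKM in Mut4 columns, against 11.9, 15.9 and 10.7 FPKM in ZHX2 columns. The columns did not overlap, and the log2 ratio was 0.61, or 1.52-fold, with 287 tested genes higher. MRPS15, which binds the small rRNA directly, had 21.1, 22.2 and 25.5 FPKM in Mut4 columns, against 15.8, 21.1 and 14.2 FPKM in ZHX2 columns, a log2 ratio of 0.41. Its lowest Mut4 column and highest ZHX2 column both round to 21.1 FPKM, with the Mut4 one marginally higher. Counting MRPL16, 4 of 78 members (5.13%) had every Mut4 column above every ZHX2 column, another threshold on the same ratio, against 11% of all tested genes, and 0 had every one below, against 8.86%. MRPS21 (log2 ratio 0.25) and MRPS24 (0.24), at the mRNA entry side, came next.

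Among the lower small-subunit genes, MRPS6, another platform protein, had 4.44, 4.67 and 5.36 FPKM in Mut4 columns, against 5.40, 7.20 and 4.85 FPKM in ZHX2 columns. Mut4 replicate 3 lay above ZHX2 replicate 3 by a small margin, and the log2 ratio was -0.23. MRPS30, placed in the large subunit by structure, averaged 7.46 FPKM in Mut4 cells, against 8.48 in ZHX2 cells, a log2 ratio of -0.17. MRPS31, found only in mitochondrial ribosomes, averaged 20.9 FPKM in Mut4 cells, against 23.0 in ZHX2 cells, a log2 ratio of -0.13. MRPS36, the 2-oxoglutarate dehydrogenase component, averaged 6.29 FPKM in Mut4 cells, against 6.81 in ZHX2 cells (log2 ratio -0.10). MRPS6 and MRPS30 stayed below 0 whichever column was left out, while without ZHX2 replicate 2 MRPS31 stood at 0.04 and MRPS36 at 0.06. Here too the split follows from the size of the ratios and shows no agreement between replicates.

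**Figure D2:**
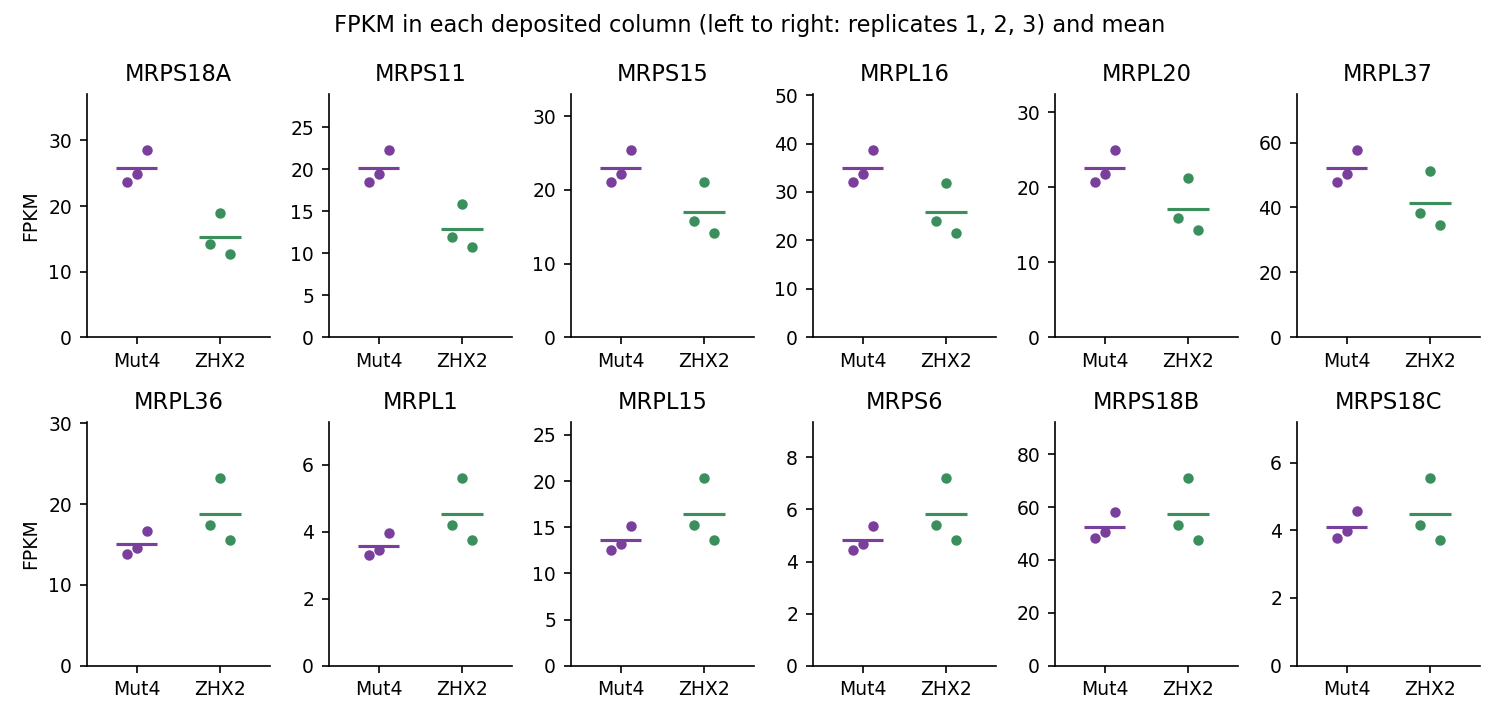
FPKM in each deposited column (points, replicates 1, 2 and 3 from left to right) and their mean (line) for 12 members, Mut4 left of ZHX2 in each panel, with axes from 0. MRPS18A and MRPS11 show a clear gap between the groups, MRPS15 and MRPL16 a bare one, and the columns of the other 8 genes overlap.

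The 3 MRPS18 genes encode related proteins that each occupy a place of their own on the ribosome. By ratio, MRPS18A stood apart from MRPS18B and MRPS18C, which lay close together. MRPS18A was 1.64-fold higher in Mut4 cells. MRPS18B had 48.2, 50.7 and 58.2 FPKM in Mut4 columns, against 53.2, 70.9 and 47.8 FPKM in ZHX2 columns, a log2 ratio of -0.13. MRPS18C had 3.78, 3.98 and 4.56 FPKM in Mut4 columns, against 4.15, 5.54 and 3.73 FPKM in ZHX2 columns, a log2 ratio of -0.10. The columns of MRPS18B and MRPS18C overlapped between groups, and without ZHX2 replicate 2 both ratios were 0.05. The proportion of MRPS18B to MRPS18C, which sit in the small subunit, was 12.8 in Mut4 cells and 12.8 in ZHX2 cells, a quantity that column scaling cannot move. The proportion of MRPS18B to MRPS18A was 2.04 in Mut4 cells and 3.74 in ZHX2 cells. That of MRPS18A to MRPS18C was 6.27 in Mut4 cells and 3.42 in ZHX2 cells. A pseudogene of MRPS18A, MRPS18AP1, is listed at 2.59 FPKM in Mut4 cells, against 1.61 in ZHX2 cells, and reads of near-identical copies may have been split between them.

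Levels of the members were far apart within either cell group, and their order was nearly the same in both. MRPS21, the small-subunit protein with the highest level, had 282, 297 and 341 FPKM in Mut4 columns, against 239, 319 and 215 FPKM in ZHX2 columns. It made up 33.4% of the summed small-subunit FPKM in Mut4 cells and 31.3% in ZHX2 cells. MRPS34, a mitochondria-specific protein, came next with 86.9 FPKM in Mut4 cells, against 81.0 in ZHX2 cells, a log2 ratio of 0.10 that was -0.01 without ZHX2 replicate 3. MRPL12, of the stalk that recruits translation factors, had 66.5, 70.0 and 80.2 FPKM in Mut4 columns, against 55.8, 74.4 and 50.1 FPKM in ZHX2 columns, a log2 ratio of 0.26. These 3 were the highest members in both groups. MRPS10 (64.4 FPKM in Mut4 cells and 58.1 in ZHX2 cells) and MRPL3 (57.2 in Mut4 cells and 54.7 in ZHX2 cells), whose product reaches toward the catalytic centre, were also among the highest of their subunits. By the mean of both groups the 3 lowest genes of each subunit were MRPL1, MRPL22 and MRPL43, and MRPS22, MRPS18C and MRPS6. Of those not yet described, MRPS22 averaged 4.02 FPKM in Mut4 cells, against 3.85 in ZHX2 cells. MRPL22, which lines the exit tunnel, averaged 4.83 FPKM in Mut4 cells, against 4.67 in ZHX2 cells, and MRPL43 averaged 5.05 FPKM in Mut4 cells, against 5.00 in ZHX2 cells. The ratios of MRPL3, MRPS22, MRPL22 and MRPL43 lay between 0.01 and 0.06 and were below 0 without ZHX2 replicate 3.

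The ratio of the highest to the lowest member was 85.8 in Mut4 cells and 67.0 in ZHX2 cells. Between 5 and 50 FPKM lay 65 members in Mut4 cells and 64 in ZHX2 cells. The median member level was 16.7 FPKM in Mut4 cells, against 14.9 in ZHX2 cells, and the 78 genes together made up 0.595% of all FPKM in Mut4 cells and 0.557% in ZHX2 cells. When the members were ranked by level within each group, 67 moved by at most 5 places between groups. MRPS18A stood at place 20 in Mut4 cells and 38 in ZHX2 cells, MRPS11 at 30 in Mut4 cells and 44 in ZHX2 cells, and MRPL36 at 42 in Mut4 cells and 26 in ZHX2 cells. No other member moved by more than 10 places.

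**Figure D3:**
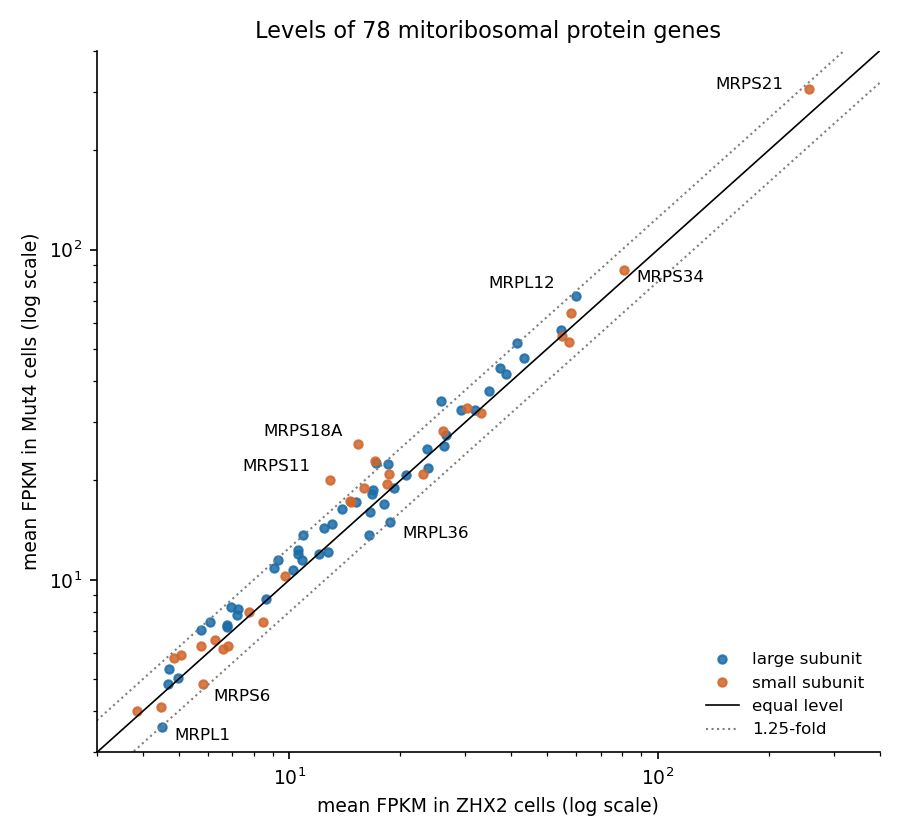
Mean FPKM of each member in Mut4 cells (vertical, log scale) against ZHX2 cells (horizontal, log scale), large-subunit genes in blue and small-subunit genes in orange. The solid line marks equal levels and dotted lines 25% higher and 20% lower in linear FPKM; MRPS18A and MRPS11 lie farthest above the lines, and MRPS21 sits alone at the top. MRPL1, with a linear ratio of 0.791, lies just below the lower line, though it did not pass on the log2(FPKM + 1) scale.

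Members in families shared with bacteria, taken as MRPL numbers up to 36 and MRPS numbers up to 21, spread more widely than the proteins with higher numbers, most of which are found only in mitochondria. The number is a rough guide: MRPS24 and MRPL47 also have bacterial relatives but count here with the higher numbers. The 44 members of bacterial families had log2 ratios from -0.30 to 0.71 with a median of 0.15, and the 34 others from -0.17 to 0.33 with a median of 0.09. By subunit the medians were 0.16 for 28 large-subunit genes of bacterial families and 0.10 for the other 21, and 0.13 for 16 small-subunit genes of bacterial families and 0.05 for the other 13. Of the bacterial families 5 of 44 genes were at least 25% higher (11.4%, close to the 11.8% of all tested genes), and of the others 1 of 34, MRPL37 (2.94%). MRPL36, MRPL1, MRPL15 and MRPS6 at the lower end belonged to bacterial families.

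Grouped by place on the large subunit, the stalk proteins had the highest median. The 5 genes of the stalk, MRPL10, MRPL11, MRPL12, MRPL53 and MRPL54, had a median log2 ratio of 0.20 and all lay above 0, from 0.05 for MRPL10 to 0.26 for MRPL12. The 8 genes at the rim of the exit tunnel, where the new chain meets the inner membrane, had a median of 0.10 and all lay above 0, among them MRPL45, the membrane tether, at 37.3 FPKM in Mut4 cells, against 34.8 in ZHX2 cells. The 7 genes listed here for the central protuberance, at the top of the large subunit, had a median of 0.08 with 4 above 0. Their ratios ran from -0.17 for MRPS30 to 0.15 for MRPL46, and the list may not hold every protein of that place. None of these 20 genes was at least 25% higher or 20% lower, against 11.8% and 9.42% of all tested genes. Without ZHX2 replicate 3 the medians were 0.10 for the stalk, -0.0081 for the tunnel rim and -0.03 for the central protuberance, and without ZHX2 replicate 2 they were 0.37, 0.28 and 0.25.

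Some member values may hold reads of other genes. In GENCODE v29, whose GRCh38 coordinates are used for genes here, 23 members overlap another gene record on the same strand and 38 overlap one on the opposite strand. The library kit marks strand, but no source used here says whether the counting used it. MRPS11 is overlapped on the opposite strand by ENSG00000173867, listed at 2.45 FPKM in Mut4 cells, against 1.10 in ZHX2 cells. MRPS18A is overlapped, also on the opposite strand, by RSPH9, listed at 0.209 FPKM in Mut4 cells, against 0.0884 in ZHX2 cells, and MRPL20 by its antisense gene MRPL20-AS1, at 10.4 FPKM in Mut4 cells, against 9.13 in ZHX2 cells. The share that such reads had in the ratios was not tested. Of the 29 members with no overlapping record, 22 lay above 0 (75.9%, against 53.8% of all tested genes). MRPL16 and MRPS15 were the 2 at least 25% higher (6.90%, against 11.8% of all tested genes). Pseudogene rows, 17 in all, exist for 14 members. The 64 members without one had a median log2 ratio of 0.11.

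Many mitochondrial ribosomal protein genes share a promoter region with a gene running the other way. A protein-coding neighbour with its start within 1000 bases on the opposite strand was present for 29 of 78 members (37.2%), against 1965 of the 10365 other tested protein-coding genes (19.0%), a property looked at after the values had been seen. MRPS11 and MRPL46 are such a pair, with starts 34 bases apart by the GENCODE starts. The MRPS11 window printed above follows the RefSeq start, lies just past the start of MRPL46 and does not hold it. MRPS11 had a log2 ratio of 0.61 and MRPL46 of 0.15, with 5.36 FPKM in Mut4 cells, against 4.71 in ZHX2 cells, and the proportion of MRPS11 to MRPL46 was 3.75 in Mut4 cells and 2.73 in ZHX2 cells. MRPL36 faces NDUFS6, a subunit of respiratory complex I, also across 34 bases by the GENCODE starts. The MRPL36 window printed above follows the RefSeq start, lies inside the GENCODE record and does not hold its GENCODE start. NDUFS6 averaged 27.4 FPKM in Mut4 cells, against 22.8 in ZHX2 cells, a log2 ratio of 0.26 beside -0.30 for MRPL36. MRPS12, of the decoding centre, overlaps in its start region with SARS2, the mitochondrial seryl-tRNA synthetase. MRPS12 averaged 20.8 FPKM in Mut4 cells, against 18.6 in ZHX2 cells (log2 ratio 0.15), and SARS2 averaged 17.5 FPKM in Mut4 cells, against 11.3 in ZHX2 cells (0.60). These 3 pairs were chosen after their values were seen.

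Promoter windows like those printed above were found for 69 of the 78 members. CCGGAAG, the core bound by ETS factors, was in 29 of them (42.0%), against 21.9% of 8517 tested protein-coding genes and 10.3% of all 35116 windows. GCCATNTT, the core bound by YY1, was in 25 (36.2%), against 11.5% of tested genes and 6.58% of all windows. CCAAT, bound by NF-Y, was in 20 (29.0%), against 38.0% of tested genes and 34.6% of all. CACGTG was in 6 (8.70%), against 10.8% of tested genes and 7.26% of all, and CGCATGCG, the NRF1 core, in 3 (4.35%), against 4.25% of tested genes and 2.02% of all. The median log2 ratio was 0.12 for members with CCGGAAG and 0.08 for the 40 without, and 0.12 for members with GCCATNTT and 0.10 for the 44 without. Members with CCAAT had a median of 0.09, and the 49 without it 0.11. A match is a description of these letters only, and the windows follow 1 RefSeq start per gene: those of MRPS11 and MRPL36 lie inside the longer gene records of GENCODE v29.

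**Figure D4:**
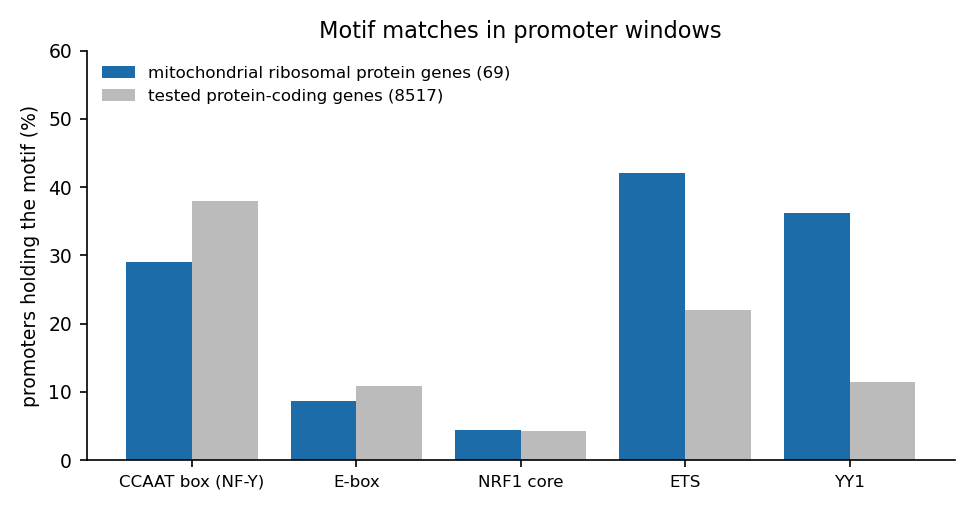
Share of promoter windows (percent, axis from 0) that hold each of 5 motifs on either strand, for 69 mitochondrial ribosomal protein genes (blue) and 8517 tested protein-coding genes (grey). The ETS and YY1 cores stand at 42.0% and 36.2% of members, against 21.9% and 11.5% of tested genes.

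Proteins of the same ribosome with other names lay in the range of the members. AURKAIP1, CHCHD1, PTCD3 and DAP3 belong to the small subunit and GADD45GIP1 to the large one. Their median log2 ratio was 0.11 over 5 genes, from -0.10 for DAP3 (34.9 FPKM in Mut4 cells, against 37.5 in ZHX2 cells) to 0.31 for AURKAIP1 (28.4 FPKM in Mut4 cells, against 22.7 in ZHX2 cells). PTCD3 stood at 0.23, and CHCHD1 and GADD45GIP1 at 0.11 each. None was at least 25% higher or 20% lower, and without ZHX2 replicates 3 and 2 in turn the median was 0.0054 and 0.28.

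The rRNAs that these proteins bind are made from mitochondrial DNA. MT-RNR1, the small-subunit rRNA, averaged 712.6 FPKM in Mut4 cells, against 1025.9 in ZHX2 cells, a log2 ratio of -0.53. MT-RNR2, the large-subunit rRNA, averaged 6286 FPKM in Mut4 cells, against 6379 in ZHX2 cells, a log2 ratio of -0.02. Poly(A) selection captures rRNA only in part, so these levels do not measure ribosome number. The 13 protein-coding mitochondrial genes, which this ribosome translates, had a median log2 ratio of 0.20. It was 0.08 without ZHX2 replicate 3 and 0.38 without ZHX2 replicate 2. Of the 13, 11 were above 0 and 4 were at least 25% higher (30.8%, against 11.8% of all tested genes), from -0.15 for MT-ND1 to 0.52 for MT-ND6, both complex I subunits. The 4 were MT-ND4, MT-ND5, MT-ND4L and MT-ND6, and MT-ND4, at 0.3228, only just passed the line of 0.3219. After quantile normalization the median of the 13 was 0.00, since the highest genes of each profile are then given like values.

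Genes that assemble, load and supply the mitochondrial ribosome lay on both sides of 0, most of them close to it. The 14 translation factors in the table had a median log2 ratio of 0.11, with 0 at least 25% higher and 0 at least 20% lower (against 11.8% and 9.42% of all tested genes), from -0.19 for QRSL1, of the glutamyl-tRNA amidotransferase, to 0.20 for MTIF3, an initiation factor. The 26 assembly and rRNA modification genes had a median of 0.09, with 3 at least 25% higher and 3 at least 20% lower (11.5% each, close to the shares of all tested genes), from -0.36 for GTPBP10 to 0.55 for MTG1, both GTPases of large-subunit assembly. The 17 mitochondrial tRNA synthetases had a median of 0.16, with 2 at least 25% higher (11.8%) and 1 at least 20% lower (5.88%), from -0.47 for PARS2 to 0.93 for VARS2 (7.00 FPKM in Mut4 cells, against 3.21 in ZHX2 cells). The 19 genes of mitochondrial transcription and RNA processing had a median of -0.04, with 1 at least 25% higher (5.26%; SLIRP, an RNA-stabilizing protein, 0.33) and 2 at least 20% lower (10.5%), the lowest being TFB2M, the transcription initiation factor, at -0.40. Without ZHX2 replicate 3 the medians were 0.01 for the translation factors, -0.01 for the assembly genes, 0.06 for the synthetases and -0.13 for the transcription list. Without ZHX2 replicate 2 they were 0.27, 0.25, 0.30 and 0.13 in the same order.

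Cytosolic ribosomal protein genes lay on the other side of 0. Of 85 such genes, 75 had a log2 ratio below 0 and 10 above it (11.8%, against 53.8% of all tested genes), with a median of -0.17, against 0.11 for the 78 mitochondrial ones. None of the 85 was at least 25% higher (against 11.8% of all tested genes) and 11 were at least 20% lower (12.9%, against 9.42%), from -0.47 for RPL23 to 0.25 for RPS27L. Their median level was 249 FPKM in Mut4 cells, against 273.8 in ZHX2 cells, which was 15.0 and 18.3 times the median of the mitochondrial members in Mut4 and ZHX2 cells. Without ZHX2 replicate 2 the cytosolic median was 0.01 and the mitochondrial one 0.28, and without ZHX2 replicate 3 they were -0.28 and -0.0028. The cytosolic list has many near-identical pseudogenes, whose share of reads was not tested.

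**Figure D5:**
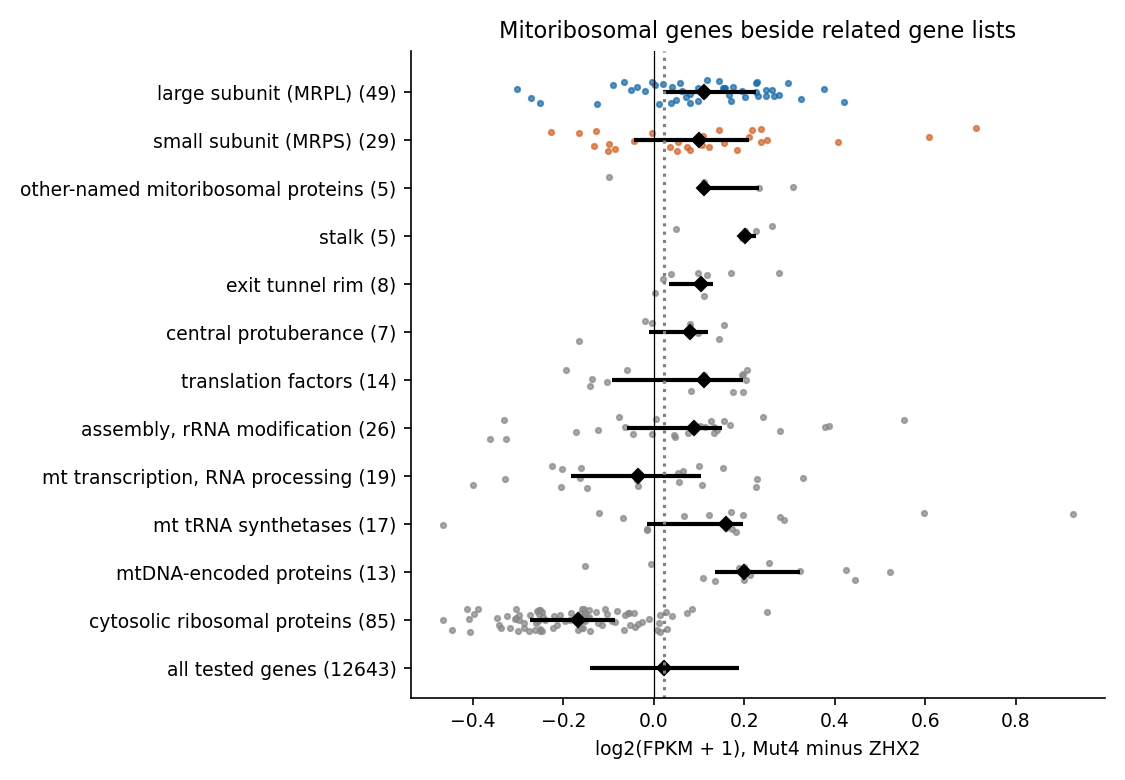
Log2(FPKM + 1) of Mut4 minus ZHX2 cells for each gene (points) of the 2 subunits and of related lists, with the median (diamond) and the quartiles (bar); numbers of genes stand in brackets, and the dotted line marks the median of all tested genes. The medians of the mitochondrial ribosomal lists sit to the right of 0, with some of their genes to the left, and the 85 cytosolic ribosomal protein genes lie mostly to the left.

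The authors' deposited table gives its own ratio, p-value and q-value for each gene, with the ratio taken as ZHX2 replicate 1 over Mut4 replicate 1. Of the 78 members, 2 have q under 0.05 in the authors' deposited table (2.56%), against 914 of 29568 rows (3.09%). They are MRPS18A, with q 0.0155 in the authors' deposited table, and MRPS11, with q 0.0446. MRPL16 has a p of 0.0480 and a q of 0.273 in the authors' deposited table, and 0 of 78 members are marked significant there, against 373 rows (1.26%). No source used here says how those p-values were made from columns in fixed proportion.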

How the data were processed

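RNA-seq was made from DB cells in 2 groups of 3 labelled libraries. Per the labels' protocols, RNA was extracted with TRIzol, poly(A)-selected and made into libraries with a dUTP second strand. Per the submitters' processing notes, fastp, HISAT2, StringTie and edgeR were used on build GRCh38; versions and settings are not given in the sources used here. The authors' deposited table holds FPKM per library, a ratio (fold), its log2 value, and p-values and q-values for 29571 genes, per the file headers. It holds no counts, so depth and counting error are unknown. All 6 level columns matched a labelled library.

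From these values, log2(FPKM + 1) of Mut4 minus ZHX2 was computed from the mean of the 3 columns, for genes of at least 1 FPKM in at least 3 columns (12643 genes, 42.8%). In 3 rows (ATG5, ACSL1 and SLC7A11) the columns went against their group's scaling or the deposited ratio, and they were left out. In 15 symbols an altered word was restored by gene ID. The limma fit foreseen for independent libraries, and its replicate block, were not run. Each group's columns are in fixed proportion, so their spread is a scaling and not gene-specific error. Members, related lists, motifs and the naming rule were chosen with earlier results of these data known. Named were a preset list of genes, the 5 highest and 5 lowest ratios and 3 highest and 3 lowest levels of each subunit, all members at least 1.25-fold apart (25% higher or 20% lower), and the extremes of each list; other names were chosen after their values were seen. Tried in turn were other pseudocounts, filters and normalizations, each column left out, and members without pseudogenes or overlaps. The calculation was also run on made-up profiles without noise, in which chosen genes were changed by a set factor. The outcome of that run was fixed in advance, so it checks the arithmetic only. Python 3.11.15, numpy 2.4.6 and pandas 2.3.3 were used, with GENCODE v29 genes and RefSeq promoters. Protein sequences were not used here.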

Additional observations from a re-analysis of the deposited data

How the results depend on the processing

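No paired analysis was possible because each group's 3 columns stand in fixed proportion and hold no gene-specific replicate variation. Of 16 alternatives none turned a called direction. For most this was fixed in advance. Leaving out a column shifts nearly all genes by a like amount, smaller than the 25% line. It could neither turn a called member nor move lists far against each other. Alternatives that only leave out or re-sort members change no ratio. Leaving out each column in turn gave a median log2 ratio of -0.0028 to 0.28 for all members, 0.0017 to 0.28 for the large subunit and -0.014 to 0.26 for the small subunit, while the difference of the subunit medians moved by less than 0.1 throughout. The same omissions gave 2 to 30 members at least 25% higher, 0 to 4 at least 20% lower, 1 to 3 higher at 1.5-fold, and 38 to 73 members above 0 (25 to 46 large, 13 to 27 small). The shares of all tested genes moved too, from 7.24% to 26.7% at least 25% higher and from 4.44% to 16.1% at least 20% lower. Those higher at 1.5-fold ran from 1.76% to 5.69% of all tested genes, and those above 0 from 38.5% to 76.3%. Most extremes came from ZHX2 replicates 2 and 3, the most and least strongly scaled columns of that group, whose omission moves the whole table: all tested genes then had a median of 0.17 or -0.07. An alternative added after seeing the data, without ZHX2 replicate 2 and relative to the median of all tested genes, gave 6 at least 25% higher, 0 at least 20% lower and a members' median of 0.11.

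With a pseudocount of 0.1, 1 member (MRPL1) was at least 20% lower. Relative to the median of all tested genes, 1 member (MRPL36) was at least 20% lower and 1 higher at 1.5-fold, and MRPL37 was no longer at least 25% higher. MRPL37 was also lost after quantile normalization and with replicate 1 columns only, which left 5 at least 25% higher in each. Without the 14 members that have a pseudogene row, 1 was higher at 1.5-fold, since MRPS18A is among them. Over the 29 members with no overlapping record (20 large, 9 small), 2 were at least 25% higher (6.90%, against 11.8% of all tested genes). At 1.5-fold 0 were higher (against 2.54%). Above 0 lay 22 (15 large, 7 small), or 75.9%, against 53.8% of all tested genes. These counts are smaller because fewer genes were counted. Of 28 named members, 17 kept their sign under every alternative that recomputed ratios and kept the gene. Some low genes, such as MRPL1, had no value at the 5 FPKM filter. Whether a sign was kept depends largely on the size of the ratio. With 1 sample counted per group, no value here has a replicate error, and depth is unknown, so differences of low genes such as MRPL1 and MRPS18C cannot be set against counting error.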
